A study of Mus musculus with 9 samples.

Results

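SOX proteins are transcription factors that bind DNA through a high-mobility-group box first recognised in the sex-determining factor SRY. The genes described are Sox4, Sox5, Sox6, Sox8, Sox9, Sox11, Sox12 and Sox13 of the mouse, 8 of the 20 SOX family genes in a table of 47729 genes. They were chosen by name and by level: a gene counted as measured when its mean over the 9 libraries of the series was at least 3 on the regularised log2 (rlog) scale, and all 8 reached that bound. The lowest mean of the 8 was that of Sox8, at 4.04, and the next family gene below it was Sox7, at 2.07.

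RNA was sequenced from synovial fibroblasts, which build the lining of joints, grown from collagenase-digested paws of wild-type BALB/c mice and kept for 5 passages. Monosodium urate (MSU), the salt that forms crystals in gouty joints, was injected to inflame the paw. Of the 9 cultures, 3 were primed, from left paws that received MSU on day 0 and on day 9. Another 3 were non-primed, from right paws that received it on day 9 alone, and 3 were naive, from uninjected paws. RNA of every group is labelled day 18. Priming and paw side therefore cannot be told apart. Both paws may belong to the same mouse, per the design text, and the numbers 1 to 3 need not name one, so p-values measure only the spread between these libraries.

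SOX proteins act in groups of close relatives. The SOXC proteins (SOX4, SOX11 and SOX12) are activators in progenitor cells, and in the mouse embryo SOX4 and SOX11 are needed for limb joints to form. The SOXD proteins (SOX5, SOX6 and SOX13) have no activation domain of their own and pair through a coiled coil, and SOX5 and SOX6 help SOX9 to switch on cartilage matrix genes. SOX9 and SOX8 belong to the SOXE proteins with SOX10, a factor of neural crest and Schwann cells. SOX9 is the factor that makes a mesenchymal cell a chondrocyte, and together with SOX5 and SOX6 it is called the SOX trio.

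Sox11 was the gene of the 8 whose difference from naive cultures passed the test, and its SOXC relatives Sox4 and Sox12 did not pass, so the stretches upstream of these 3 genes are shown. Promoter entries were matched for 7 of the 8 genes, all but Sox9. The lines give the 250 bases before the RefSeq start (GRCm38.p6), 5′ to 3′ on the strand of the gene. Capitals mark GGGCGG, the GC box, and GCGTG, a core of the hypoxia response element, on either strand, so they also read CCGCCC and CACGC.
Sox11: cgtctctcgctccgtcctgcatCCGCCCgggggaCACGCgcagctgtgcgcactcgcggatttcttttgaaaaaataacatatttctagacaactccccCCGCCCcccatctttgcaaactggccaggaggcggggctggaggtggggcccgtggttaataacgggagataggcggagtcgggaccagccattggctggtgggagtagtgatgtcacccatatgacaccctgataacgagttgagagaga
Sox4: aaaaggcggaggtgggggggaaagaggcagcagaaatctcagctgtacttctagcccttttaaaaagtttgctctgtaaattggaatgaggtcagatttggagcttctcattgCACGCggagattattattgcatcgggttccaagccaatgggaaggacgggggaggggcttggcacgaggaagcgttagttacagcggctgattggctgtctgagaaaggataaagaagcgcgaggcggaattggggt
Sox12: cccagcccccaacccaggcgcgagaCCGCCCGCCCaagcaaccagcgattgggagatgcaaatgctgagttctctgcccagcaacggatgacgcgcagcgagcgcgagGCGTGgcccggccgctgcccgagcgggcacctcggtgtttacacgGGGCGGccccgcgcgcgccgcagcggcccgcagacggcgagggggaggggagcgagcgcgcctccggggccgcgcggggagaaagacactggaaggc
They lie at chr12:27342719-27342968, chr13:28953700-28953949 and chr2:152398047-152398296, all on the minus strand. The Sox11 stretch was 58.0% G and C with 17 CpG sites, that of Sox4 50.8% with 11, and that of Sox12 74.4% with 35. Over the 32851 promoters of the same length, the medians were 52.4% and 6 CpG sites. GCGTG occurred 1 time in each of the 3 stretches and in 28.2% of all promoters. GGGCGG occurred 2 times for Sox11, 0 times for Sox4 and 3 times for Sox12, with a pair of overlapping matches, and in 32.7% of all promoters. ACGTG (16.6% of all promoters), the AP-1 motif TGANTCA (6.75%), the SOX core ACAAT (27.7%) and TATAAA (12.4%) were found in none of the 3 windows on either strand. These matches describe letters and are not binding sites.

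Sox11, the SOXC gene best known from embryonic progenitors and neurons, is a gene of 1 exon (ENSMUSG00000063632) at chr12:27334264-27342574 on the minus strand. Gene positions are those of GENCODE M21 on GRCm38, and all but that of Sox9 are on the minus strand. Its rlog values were 4.65, 3.92 and 4.31 in primed cultures, 4.53, 4.24 and 4.25 in non-primed cultures, and 5.83, 6.02 and 5.51 in naive cultures. Every injected library lay below every naive library, with a gap between 4.65 and 5.51. The means were 4.29 ± 0.36 in primed, 4.34 ± 0.17 in non-primed and 5.78 ± 0.26 in naive cultures (SD, n = 3 each). The 6 injected libraries together differed from the 3 naive libraries by -1.47 (SE 0.19, 95% interval -1.89 to -1.04), a fold of 0.361 on the rlog scale. This fall passed the threshold of 0.05 over the 15623 genes tested (limma, Benjamini-Hochberg adjusted p = 0.0201). The fit counted the 6 injected libraries as independent, though paws may share a mouse. The pattern of Sox11 was already known when the genes were chosen, so this test is no independent support.

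Each injected group by itself showed a difference of the same size that did not pass. Sox11 differed by -1.49 (SE 0.22) in primed and by -1.45 (SE 0.22) in non-primed against naive cultures, with limma adjusted p = 0.0631 and 0.0576. These comparisons share the naive libraries, and the pooled one is their average. Between primed and non-primed cultures Sox11 differed by -0.04 (SE 0.22), with a 95% interval of -0.53 to 0.45. The adjusted p of the pooled difference ranged from 0.0128 to 0.154 over 17 other settings, with the difference between -1.61 and -1.35, and 12 of them kept the call. It was lost without primed 3 (0.0683), non-primed 1 (0.0705), non-primed 2 (0.0654) or non-primed 3 (0.0871). The primed difference passed without primed 1 (0.0340), naive 2 (0.0291) or naive 3 (0.0273), and the non-primed difference without the same libraries (0.0393, 0.0327 and 0.0251).

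Sox4, the SOXC gene whose expression is raised in many tumours, did not pass the test. Its rlog was 11.94, 12.12 and 12.21 in primed, 12.27, 11.95 and 12.20 in non-primed, and 11.75, 12.09 and 12.14 in naive cultures. The 3 groups overlapped. The injected libraries differed from the naive ones by 0.12 (SE 0.11, interval -0.14 to 0.38, limma adjusted p = 0.589), and by -1.07e-05 without naive 1. Sox4 (ENSMUSG00000076431) is a gene of 1 exon at chr13:28948919-28953713, and 54.6% of its exonic bases also lie in Gm26735, a long non-coding RNA gene on the opposite strand. The strand setting of the counting is not given in the sources used here, so reads of the pair may be mixed. Gm26735 had rlog values of 3.00, 2.94 and 3.29 in primed, 3.45, 3.41 and 3.28 in non-primed, and 2.95, 3.31 and 3.18 in naive cultures.

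Sox12, the third SOXC gene and the weakest activator of them, had rlog values of 5.61, 5.34 and 5.38 in primed, 5.43, 5.54 and 5.18 in non-primed, and 5.58, 5.94 and 5.56 in naive cultures. The non-primed values lay just below all naive values, 5.54 against 5.56 at the closest, and the primed values overlapped them. The pooled difference from naive libraries was -0.28 (SE 0.15, interval -0.61 to 0.05, limma adjusted p = 0.322), and -0.16 without naive 2. The gene (ENSMUSG00000051817) lies at chr2:152393611-152398063. The intervals of Sox4 and Sox12 lie above the whole interval of Sox11, and the difference between the genes was itself not tested.

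**Figure D1:**
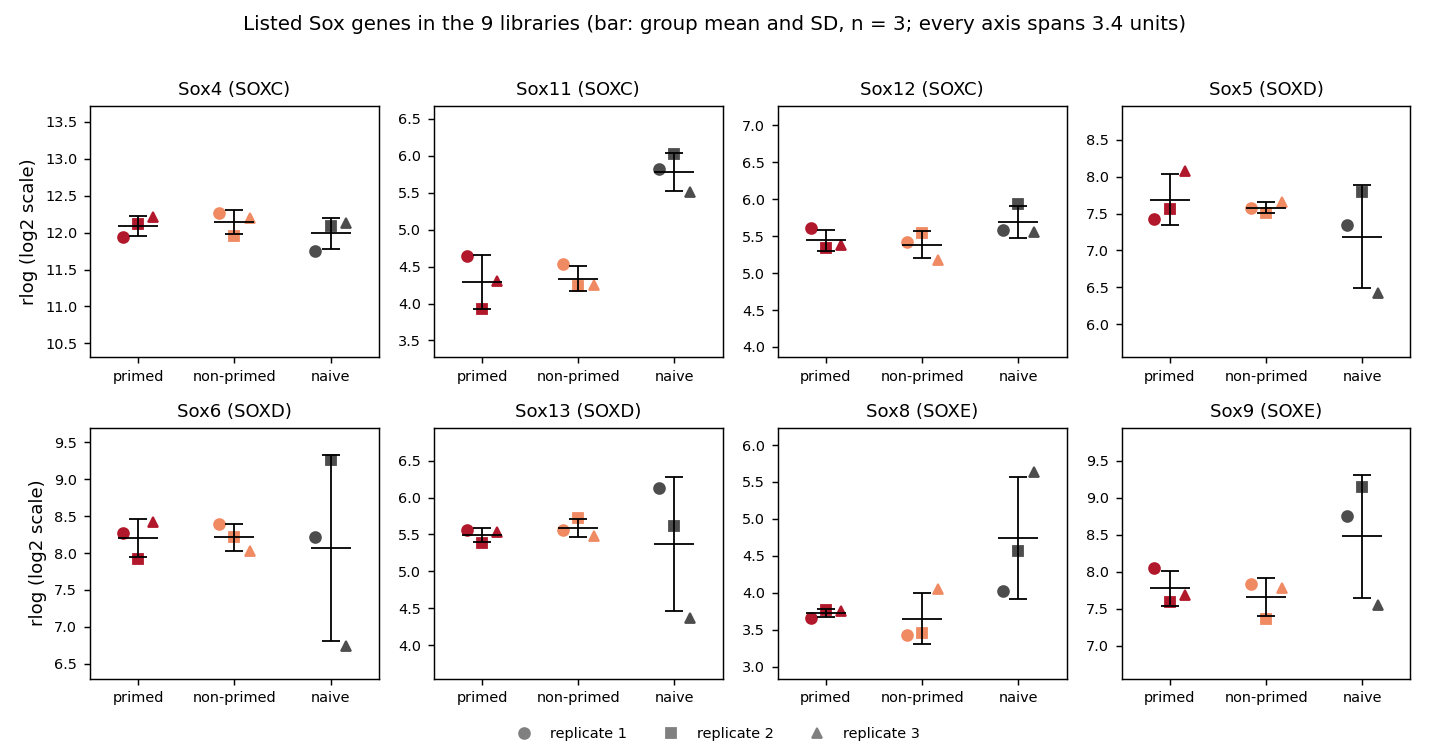
Regularised log2 (rlog) value of each of the 8 Sox genes in the 9 libraries, with primed, non-primed and naive cultures from left to right, symbols for replicates 1 to 3, and bars for the group mean and SD (n = 3). Every axis spans the same number of units, so spreads can be compared; Sox11 separates naive from injected libraries, and naive 3 lies far from naive 1 and 2 for Sox5, Sox6 and Sox13.

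The SOXD genes did not pass the test in any comparison, and each had its lowest value in naive 3. Sox6, a partner of SOX9 in cartilage, had rlog values of 8.28, 7.92 and 8.41 in primed, 8.39, 8.22 and 8.03 in non-primed, and 8.21, 9.26 and 6.74 in naive cultures. Naive 2 was the highest and naive 3 the lowest of all 9 libraries. Its range of 2.52 was the widest of the 8 genes, and its naive SD of 1.26 was larger than that of 98.0% of the tested genes. The pooled difference was 0.14 (SE 0.45, interval -0.88 to 1.16, limma adjusted p = 0.895). The difference turned to -0.53 without naive 3 and was 0.73 without naive 2.

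Sox5, the other SOXD partner of SOX9, had rlog values of 7.42, 7.56 and 8.08 in primed, 7.58, 7.51 and 7.65 in non-primed, and 7.35, 7.79 and 6.43 in naive cultures. Naive 3 was again the lowest, and naive 2 lay inside the injected range. The pooled difference was 0.45 (SE 0.28, interval -0.19 to 1.08, limma adjusted p = 0.403). It was 0.06 without naive 3 and 0.75 without naive 2. Sox5 (ENSMUSG00000041540) spans chr6:143828425-144781977 with 14 annotated transcripts and Sox6 (ENSMUSG00000051910) chr7:115470872-116038796 with 16, and the table gives 1 value for all transcripts of a gene. Of the 50-base words of Sox5 transcripts, 8.98% also occur, on either strand, in transcripts of other genes, so part of its reads may be shared. Words in bases shared with genes on the opposite strand are included, and their part was not counted. The antisense gene Sox5os1, which shares 1330 exonic bases with Sox5, was listed at 0 in every library.

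Sox13, a SOXD gene known from gamma-delta T cells and the developing nervous system of the mouse, had rlog values of 5.56, 5.39 and 5.53 in primed cultures and 5.56, 5.72 and 5.48 in non-primed cultures. In naive cultures it had 6.13, 5.62 and 4.37. The naive libraries held both the highest and the lowest value, with naive 3 lowest as for Sox5 and Sox6. Injected minus naive libraries gave 0.17 (SE 0.33, interval -0.57 to 0.91, limma adjusted p = 0.809), with -0.33 without naive 3 and 0.55 without naive 1. Sox13 (ENSMUSG00000070643) lies at chr1:133382303-133424377 with 5 transcripts.

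Among the SOXE genes, Sox9 was lower in injected than in naive cultures on average, without passing the test. Its rlog values were 8.04, 7.59 and 7.69 in primed, 7.83, 7.36 and 7.78 in non-primed, and 8.75, 9.14 and 7.54 in naive cultures. Naive 1 and naive 2 lay above all injected libraries, and naive 3 lay within their range. The means were 7.77 ± 0.24 in primed, 7.65 ± 0.26 in non-primed and 8.48 ± 0.83 in naive cultures (SD, n = 3 each). The injected libraries differed by -0.76 (SE 0.32, interval -1.48 to -0.04, limma adjusted p = 0.2265). Single naive libraries move this value in both directions. The pooled difference was -0.43 without naive 2 (limma adjusted p = 0.460) and -0.63 without naive 1 (0.360). Without naive 3 all 3 comparisons with naive cultures passed: the pooled difference was -1.23 (limma adjusted p = 0.0192), that of primed cultures -1.17 (0.0486) and that of non-primed cultures -1.29 (0.0327). Sox9 (ENSMUSG00000000567) has 3 exons at chr11:112782224-112787760 on the plus strand, and no 50-base word of it occurs in another gene.

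Sox8, the SOXE gene that acts beside SOX9 in Sertoli cells and neural crest, had rlog values of 3.66, 3.76 and 3.76 in primed, 3.43, 3.46 and 4.05 in non-primed, and 4.02, 4.56 and 5.64 in naive cultures. The primed libraries lay below all naive ones, and non-primed 3 lay just above naive 1. Here naive 3 was the highest library, the opposite of its place for the SOXD genes. Over all injected libraries the difference was -1.05 (SE 0.32, interval -1.78 to -0.33, limma adjusted p = 0.122). It was -0.60 without naive 3 and -1.41 without naive 1, and passed in neither case. Sox8 (ENSMUSG00000024176) has 3 exons at chr17:25565892-25570686 and shares 10.6% of its exonic bases with the antisense gene 2810468N07Rik, so reads of the pair may be mixed. That gene had rlog values of 5.59, 5.73 and 5.68 in primed, 5.49, 5.50 and 5.48 in non-primed, and 5.51, 6.05 and 6.93 in naive cultures, and was likewise highest in naive 3. Its pooled difference was -0.59 (SE 0.26, limma adjusted p = 0.2565).

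The counts of the 8 genes can be read against those of all tested genes. In primed against naive cultures 0 of the 8 passed, against 0.102% of the tested genes, and 2 of the 8 (Sox11 and Sox8) had groups that did not overlap, against 17.1% of the tested genes. In non-primed against naive cultures 0 passed, against 0.141%, and the groups of Sox11 and Sox12 did not overlap, against 21.9%. In the pooled comparison 1 passed, against 1.22% of the tested genes in either direction and 0.506% lower. Sox11 alone had groups that did not overlap there, against 11.5% in either direction and 5.34% lower. In primed against non-primed cultures 0 passed, against 0.0%, and 0 had groups apart, against 11.6%. Before adjustment, the limma p was below 0.05 for 2, 2, 3 and 0 of the 8 genes in these comparisons. The same held for 2635 (16.9%), 2410 (15.4%), 3116 (19.9%) and 197 (1.26%) of the tested genes. In each comparison 4 of the 8 were higher and 4 lower, and their median difference was -0.08, -0.08, -0.08 and 0.03. The medians of all tested genes lay between -0.0014 and 0.0088.

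**Figure D2:**
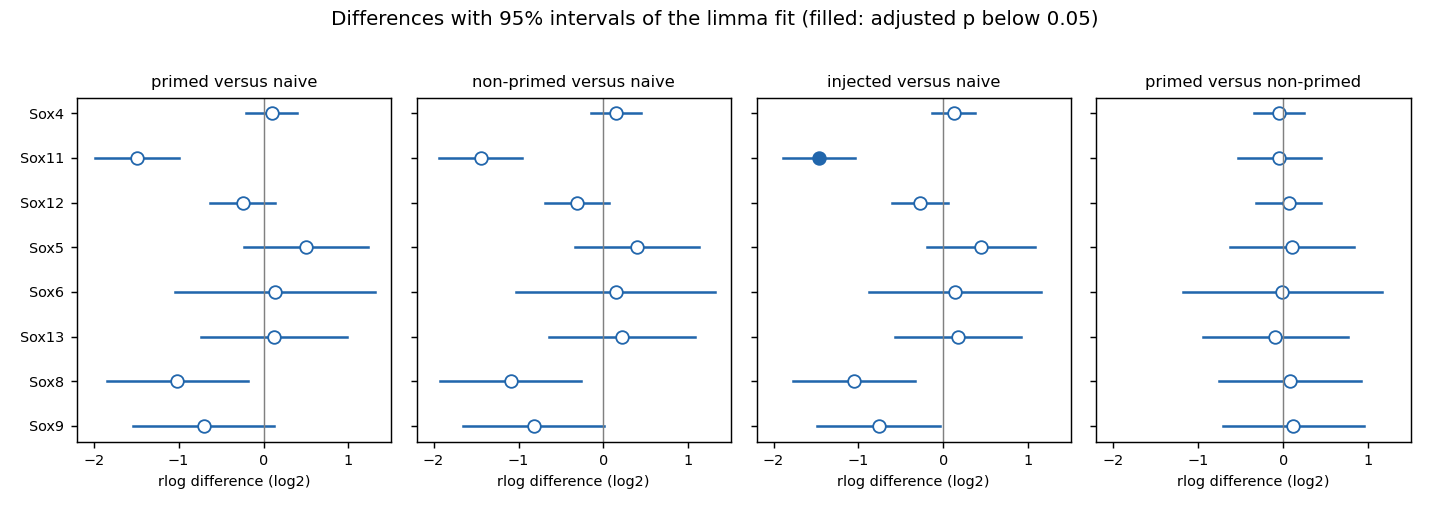
Difference in rlog (log2 units) of the 8 Sox genes in 4 comparisons, each point with the 95% interval of the limma fit; a filled point has an adjusted p below 0.05 over all tested genes. The filled point is Sox11 in injected against naive cultures, at -1.47, and every interval of primed against non-primed cultures spans 0.

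No Sox gene passed between primed and non-primed cultures. All 8 differences between primed and non-primed cultures lay between -0.09 and 0.12, and every limma adjusted p was 0.9999. The 95% interval was narrowest for Sox4, at -0.35 to 0.25, and widest for Sox6, at -1.18 to 1.17. These intervals come from the spread shared by all 3 groups, the naive one included, without pairing. With the primed and non-primed libraries fitted alone, that of Sox6 was -0.373 to 0.356 and that of Sox4 -0.299 to 0.198, and the widest was that of Sox11, at -0.521 to 0.434. With the replicate numbers as a block, that of Sox6 was -1.22 to 1.20 and that of Sox11 -0.535 to 0.448. A difference of the size of Sox11's fall against naive cultures lies outside all 8 intervals in each of these fits.

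Of the other 12 family genes, 3 (Sox1, Sox14 and Sox21) were listed at 0 in every library and 7 varied below the bound. Among those 7 were Sox7 (2.07), Sox18 (-0.39) and Sox17 (-1.82), the SOXF genes of endothelial cells, given as mean rlog. Sox10 and Sox2, both used by glial and neural crest cells, reached the bound. Sox10 had rlog values of 5.59, 6.69 and 6.36 in primed, 6.65, 6.88 and 6.26 in non-primed, and 7.05, 5.98 and 4.71 in naive cultures. Sox2 had 5.20, 5.67 and 5.95 in primed, 6.31, 5.94 and 6.16 in non-primed, and 6.42, 5.51 and 4.76 in naive cultures. Both were highest in naive 1 and lowest in naive 3. Their pooled differences were 0.49 (SE 0.46, limma adjusted p = 0.590) and 0.31 (SE 0.33, limma adjusted p = 0.645).

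The cultures carried the fibroblast markers of their label: all 14 were tested, with a mean rlog between 13.89 and 14.32 in injected libraries and between 13.86 and 14.40 in naive ones. Of these 14 markers, 10 were higher and 4 lower in injected cultures, with a median difference of 0.09. Only 1 passed, against 1.22% of all tested genes in either direction, and 1 had an unadjusted p below 0.05 (limma), against 19.9%. It was Pdpn, a surface glycoprotein of synovial lining fibroblasts, which rose by 0.51 (SE 0.09, limma adjusted p = 0.0367), a call kept with 4 of the 9 libraries left out in turn. Levels of markers of other cell types also differed on average between the groups. All 14 macrophage markers were tested and all 14 were higher in injected cultures by a median of 1.93, 0 of them past the limma threshold and 13 with an unadjusted p below 0.05, against 19.9% of all tested genes. The mean rlog of these markers was 9.48 to 10.71 in primed, 9.73 to 10.25 in non-primed and 7.23 to 9.77 in naive cultures. In such bulk cultures, fewer cells of a type and less RNA per cell cannot be told apart. Naive 2 had a macrophage mean of 9.77, inside the injected range, and a Sox11 rlog of 6.02, the highest of the 9 libraries. With the macrophage mean as a covariate Sox11 differed by -1.59, and the limma adjusted p was 0.154. Naive 1 (7.57) and naive 3 (7.23) lay below all injected libraries in macrophage mean, so this fit cannot well separate macrophage level from injection. Most calls over all tested genes were lost with this covariate as well.

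**Figure D3:**
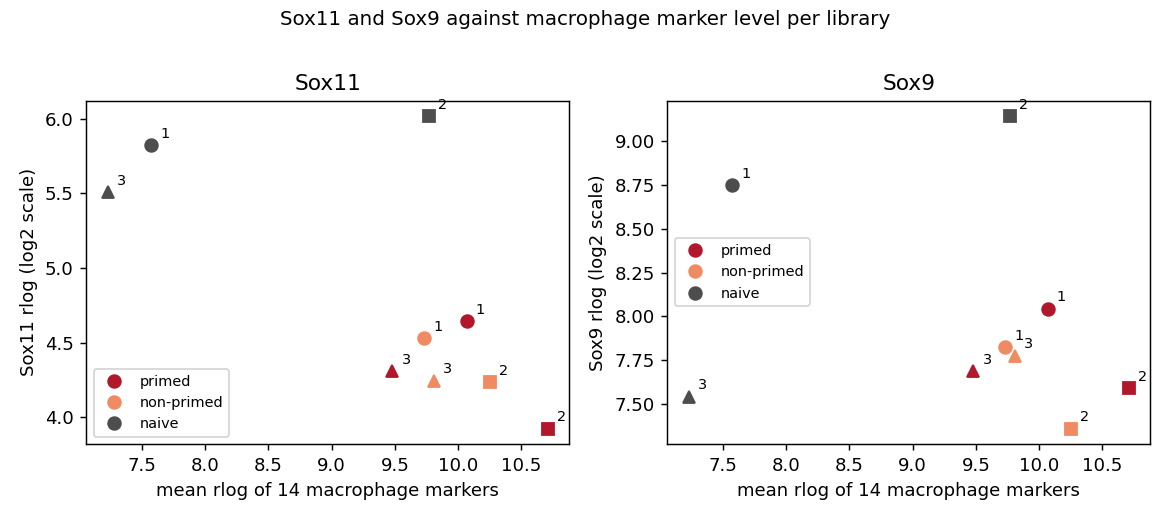
Sox11 (left) and Sox9 (right) rlog against the mean rlog of 14 macrophage markers in each library, with colours for primed, non-primed and naive cultures and numbers for replicates. Naive 2 lies at a macrophage level of 9.77 among the injected libraries and has the highest Sox11 (6.02) and Sox9 (9.14) values.

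The Schwann cell markers, of which 12 of 13 were tested, had a mean rlog of 7.17 to 7.94 in primed, 7.69 to 8.07 in non-primed and 6.48 to 7.79 in naive cultures, lowest in naive 3. The 6 tested of 8 adipocyte markers had a mean of 7.05 to 7.98 in primed, 6.96 to 7.21 in non-primed and 7.04 to 9.28 in naive cultures, with Lep listed at 0. The naive value of 7.04 belongs to naive 3. Of the skeletal muscle markers 8 of 15 were tested, with a mean of 4.51 to 6.0 in primed, 4.95 to 5.78 in non-primed and 4.30 to 4.62 in naive cultures, and Myf5 was listed at 0. Among epithelial markers 3 of 9 were tested. Krt14 was listed at 0, and Epcam, Krt8, Krt18, Krt5 and Cdh1 lay below the bound. The mean of the 3 tested was 5.78 to 6.16 in primed, 6.42 to 6.57 in non-primed and 4.82 to 5.17 in naive cultures. Perp, a desmosome-associated protein, rose by 1.52 (SE 0.18, limma adjusted p = 0.0174) and the keratin Krt7 by 1.39 (SE 0.21, limma adjusted p = 0.0303) in injected cultures. These calls held with 5 and 4 of the 9 libraries left out in turn. So 2 of the 3 tested epithelial markers passed, against 1.22% of all tested genes in either direction. All 3 had an unadjusted p below 0.05 (limma), against 19.9%. Of 13 endothelial markers 5 were tested, with a mean of 5.69 to 6.06 in primed, 5.67 to 5.96 in non-primed and 5.22 to 6.04 in naive cultures. The 20 mitosis genes had a mean of 9.07 to 9.34 in primed, 9.16 to 9.80 in non-primed and 8.03 to 9.75 in naive cultures. Of the Schwann cell, adipocyte, muscle, endothelial and mitosis genes 0 passed in the pooled comparison (limma). An unadjusted p below 0.05 belonged to 5 of 12, 3 of 6, 6 of 8, 2 of 5 and 0 of 20, against 19.9% of all tested genes. In the same order, 11, 1, 7, 3 and 19 were higher in injected cultures and 1, 5, 1, 2 and 1 lower. The part of these markers, or of the macrophage markers, in the Sox differences was not tested.

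Libraries of the naive group were the most spread. The median SD of a tested gene was 0.14 in primed, 0.10 in non-primed and 0.22 in naive cultures. For Sox5, Sox6, Sox8, Sox9 and Sox13 the naive SD was larger than that of 89.7% to 98.0% of the tested genes, while for Sox4, Sox11 and Sox12 it stood between 47.0% and 57.1%. Naive 3 was the lowest library for 3 of the 8 genes and for 26.5% of the tested genes, and the highest for 1 of the 8 and for 25.1%. Naive 2 was the highest for 4 of the 8 (Sox6, Sox9, Sox11 and Sox12) and for 19.5% of the tested genes. On the first principal component of all tested genes, with 38.0% of the variance, naive 3 stood apart from the other libraries.

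None of the tested cartilage genes that the SOX trio is known to switch on passed the test. Of 20 listed, 12 were tested: 5 were higher and 7 lower in injected than in naive cultures, 0 past the limma threshold and 4 with an unadjusted p below 0.05 (19.9% of all tested genes in this comparison), with a median difference of -0.19 against 0.0016 for all tested genes. The smallest p-values belonged to Cnmd, the cartilage protein chondromodulin, and Col9a3, a chain of collagen IX. Cnmd had rlog values of 10.08, 6.73 and 7.67 in primed, 8.37, 6.78 and 8.46 in non-primed, and 9.99, 11.86 and 11.34 in naive cultures. Primed 1 lay above naive 1, so the groups overlapped. Its difference was -3.05 (SE 0.75, limma adjusted p = 0.0863). Col9a3 differed by -0.88 (SE 0.23, limma adjusted p = 0.0949).

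Col2a1, the main collagen of cartilage and a direct target of SOX9, had rlog values of 7.03, 7.31 and 8.35 in primed, 7.11, 7.65 and 7.04 in non-primed, and 7.07, 8.63 and 6.32 in naive cultures. Naive 2 was highest and naive 3 lowest, as for Sox6. Acan, the aggrecan gene, was below the bound with a mean of 1.23, and Snorc was listed at 0. The list mean was highest in naive 2, at 8.89, the library with the highest Sox9 and Sox6 values, against 7.67 to 8.05 in injected libraries. In naive 1, where Sox9 was 8.75, it was 7.79, inside the injected range. In naive 3, where Sox9 was 7.54 and Sox6 was lowest, it was 8.08, above all injected libraries. Whether the list follows these Sox genes was not tested.

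Among 16 cofactors and regulators of SOX9, 13 were tested: 3 were higher and 10 lower in injected cultures, 0 past the threshold and 4 with an unadjusted p below 0.05, against 19.9% of all tested genes, with a median of -0.20. The acetyltransferases Crebbp and Ep300, which act as co-activators of SOX9, had the smallest p-values. Crebbp differed by -0.30 (SE 0.08, limma adjusted p = 0.0908) and Ep300 by -0.51 (SE 0.14, limma adjusted p = 0.0957). Of 16 joint progenitor genes, 15 were tested, 3 higher and 12 lower, with a median of -0.26. Of the 15, 1 (Nog) fell past the limma threshold, against 0.506% of all tested genes called lower. An unadjusted p below 0.05 belonged to 3 of the 15, against 19.9% of all tested genes.

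Nog encodes noggin, an antagonist of bone morphogenetic proteins. Its rlog values were 3.97, 3.18 and 3.58 in primed, 3.63, 3.47 and 3.78 in non-primed, and 5.02, 5.27 and 4.47 in naive cultures, with no overlap between injected and naive libraries. The fall was 1.32 on the log2 scale (SE 0.22, limma adjusted p = 0.0367), and the call held with 3 of the 9 libraries left out in turn. It was lost without primed 2, primed 3, naive 1 or any of the non-primed libraries.

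None of the tested genes linked to SOXC proteins in other tissues passed the test. Of 10 listed, 9 were tested and Dcx was listed at 0; 6 were higher and 3 lower in injected cultures, 0 past the limma threshold and 2 with an unadjusted p below 0.05, against 19.9% of all tested genes, with a median of 0.16. Sema3c, a secreted guidance protein, had rlog values of 10.44, 10.70 and 10.72 in primed, 10.63, 10.34 and 10.86 in non-primed, and 10.13, 9.89 and 9.62 in naive cultures. It differed by 0.73 (SE 0.14, limma adjusted p = 0.0523). Marcksl1, an actin-binding protein, differed by 0.59 (SE 0.20, limma adjusted p = 0.154).

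Tendon and bone genes, which other connective tissue cells of the paw use, gave 0 calls by limma, with an unadjusted p below 0.05 for 6 of 10 and 3 of 9, against 19.9% of all tested genes. The 10 tendon genes had a median pooled difference of -0.335, with Thbs4 at 1.25 (SE 0.31, limma adjusted p = 0.0865) and Mkx at -0.62 (SE 0.22, limma adjusted p = 0.167). Of 12 osteoblast genes 9 were tested, with a median of -0.18. Dlx5, a homeobox factor of developing bone and limb, differed by -0.65 (SE 0.16, limma adjusted p = 0.0841).

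**Figure D4:**
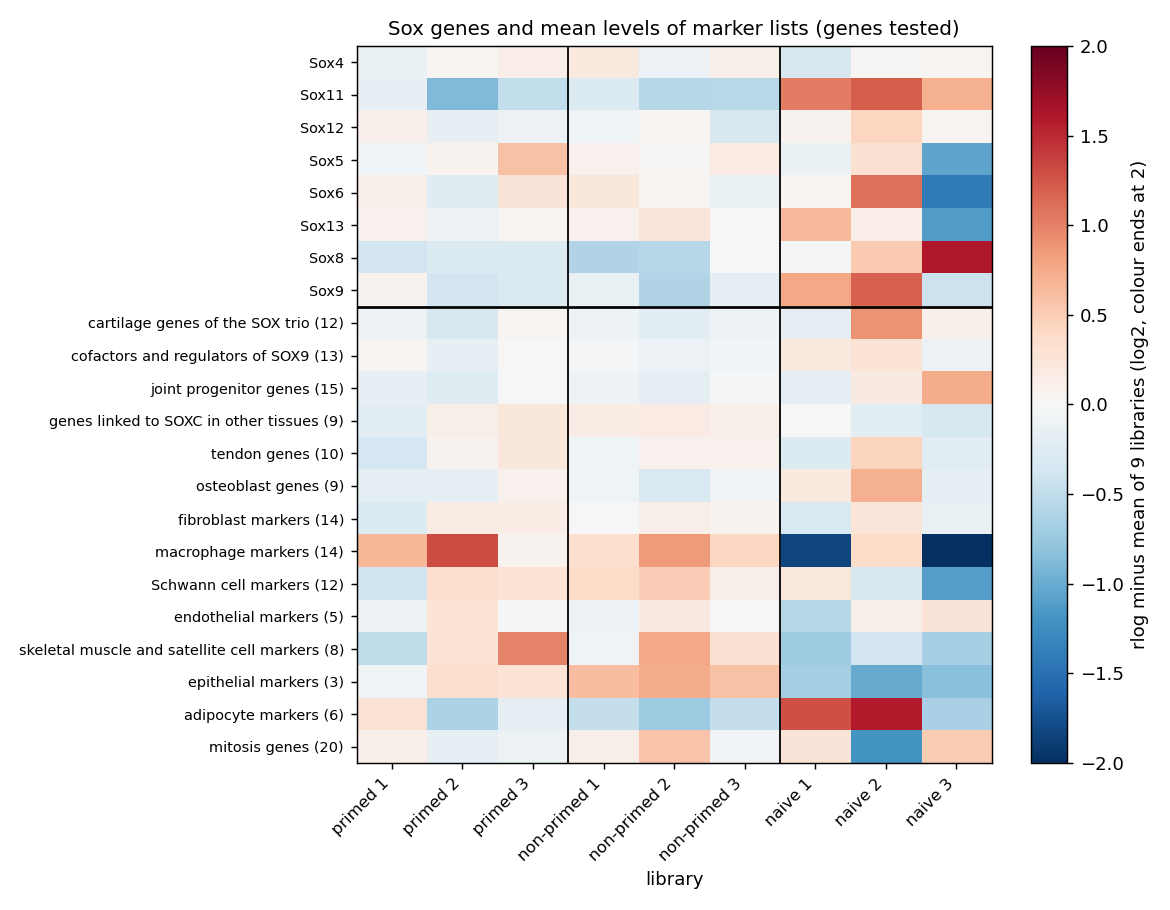
Each of the 8 Sox genes and the mean of the tested genes of each list (number in brackets) in the 9 libraries, as rlog minus the mean over libraries (log2 units, colours end at 2). Primed, non-primed and naive libraries run from left to right; Sox11 is above its mean in all 3 naive libraries, and macrophage markers are lowest in naive 1 and naive 3.

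The genes whose values were most like those of Sox11 over the 9 libraries were taken by Pearson's correlation, as a description over points that share libraries. They were Phc3 (0.986), a Polycomb protein, Grik5 (0.982), a kainate receptor subunit, Nog (0.980), Adgrl1 (0.979), an adhesion receptor, and Prrc2b (0.979). Phc3 had rlog values of 11.02, 10.76 and 10.86 in primed, 10.92, 10.92 and 10.91 in non-primed, and 11.30, 11.45 and 11.26 in naive cultures. Grik5 had 7.60, 7.21 and 7.32 in primed, 7.41, 7.29 and 7.43 in non-primed, and 8.02, 8.33 and 8.03 in naive cultures. In both, as in Sox11, all naive libraries lay above all injected ones, and naive 2 was highest and primed 2 lowest. Both genes were picked for their likeness to Sox11, so this is no separate result. All naive libraries lay above all injected ones for 5.34% of the tested genes.

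For Sox6, the gene with the widest range, the most similar genes were Ptprd (0.989), a receptor phosphatase, Mme (0.969), the membrane protease neprilysin, Pcdhb7 (0.969), Pcdhb11 (0.962) and Ddit4l (0.958), an inhibitor of mTOR signalling. Ptprd had rlog values of 10.81, 10.40 and 10.89 in primed, 10.62, 10.71 and 10.48 in non-primed, and 10.61, 11.49 and 9.46 in naive cultures. Mme had 12.66, 12.24 and 12.68 in primed, 12.67, 12.34 and 12.59 in non-primed, and 12.38, 14.03 and 11.09 in naive cultures. In all 5, naive 2 held the highest and naive 3 the lowest value, which is no separate result since they were picked for their likeness to Sox6. The protocadherin beta genes are related paralogues, and whether their reads were shared was not tested.

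**Figure D5:**
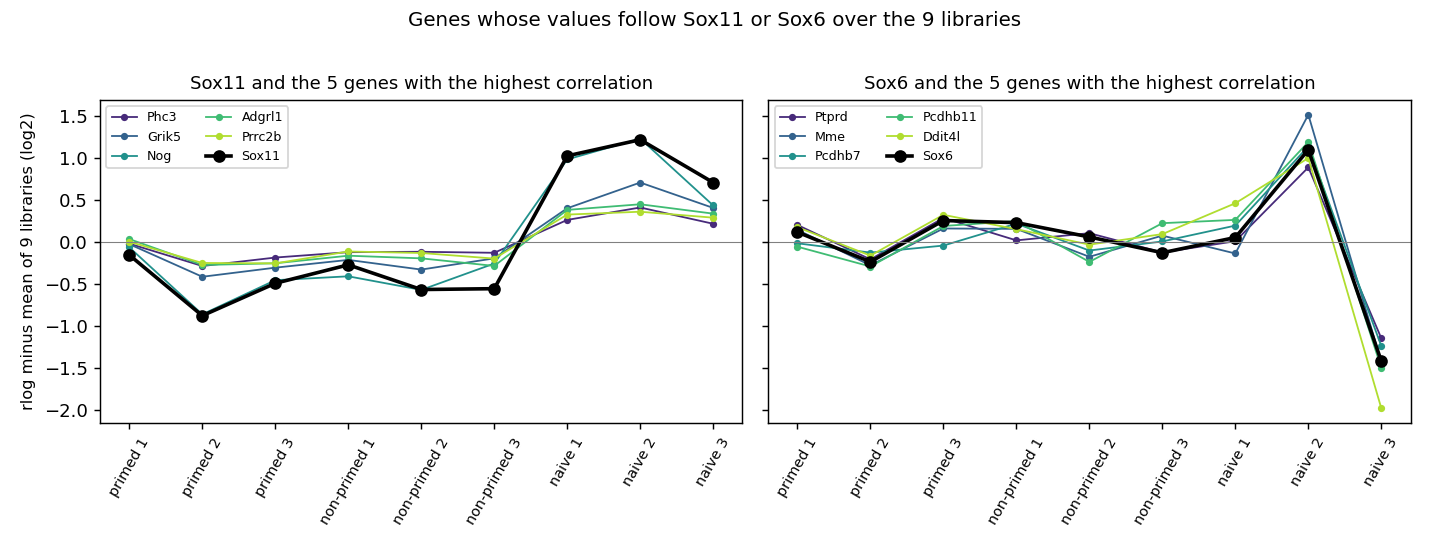
Sox11 (left) and Sox6 (right) in black with the 5 tested genes of highest Pearson correlation over the 9 libraries, as rlog minus the mean over libraries (log2 units), with primed, non-primed and naive libraries from left to right. The Sox11 pattern is a step between injected and naive libraries; the Sox6 pattern is a peak in naive 2 and a trough in naive 3.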

How the data were processed

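Expression was measured by RNA sequencing in 9 libraries, 3 per group. Library preparation was stranded and selected mRNA, per the labels' protocols. The submitters' processing notes name cutadapt 2.5, STAR 2.5.4a, featureCounts of Subread 1.6.1, DESeq2 and GRCm38. How strand was set, which annotation was counted and how the transformation was run is not given in the sources used here. What the authors deposited are rlog values, a regularised log2 scale that adjusts for depth and draws weakly expressed genes towards their mean, so differences of such genes are understated. Read counts were not used here, so depth is unknown, and values are not per length and were not compared between genes.

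Of 47729 genes, 19972 stood at 0 throughout and 15623 varied with a mean rlog of at least 3. These were tested with limma 3.58.1 in R 4.3.3: 1 mean per group over all 9 libraries (6 residual degrees of freedom), moderated variances with a trend, two-sided, Benjamini-Hochberg adjustment over all tested genes and a threshold of 0.05. The fit was tested on simulated data in which each gene had the same spread in all groups. That simulation therefore does not cover the wider spread of the naive libraries. Injected against naive is the mean of both injected groups minus the naive group. With 3 libraries a group, the smallest two-sided p of an exact permutation test is 0.1. Positions and shared 50-base words came from GENCODE M21 on GRCm38.

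The 8 genes and the gene lists were chosen with earlier results of these data known. The genes named were all 8, the other family genes at the bound, the 5 most correlated genes, overlapping genes, and list genes taken from the pooled comparison. From each list these were the genes past the threshold or else the 2 with the smallest p. For lists of cell type markers and mitosis genes, only genes past the threshold were taken. A gene taken by this rule is not reported here. Col2a1, Acan, Snorc and other genes at 0 or below the bound were added as defining markers. Same-numbered primed and non-primed libraries deviated together from their group means (correlations of 0.418, 0.608 and 0.100, each above 0.1), which meets the rule for pairs, though the last lies at the bound. The unlike-numbered primed 1 and non-primed 3 stood higher than the last, at 0.275, and primed 3 with naive 3 had 0.101. All other unlike-numbered primed and non-primed libraries lay below 0.1. Same-numbered pairs with naive libraries did not all deviate together. The values reported are from the fit without pairing, which counts all injected libraries as independent, though paws may share a mouse. An alternative fit has the replicate number as a block over all 9 libraries, naive ones included. It is thus not a fit of primed and non-primed pairs alone. Alternatives were other filters, variance priors, sample weights, scalings, a macrophage covariate, a replicate block, fits of the compared groups alone, and each library left out.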

Additional observations from a re-analysis of the deposited data

How the results depend on the processing

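Over all alternatives, 533 values of single Sox genes kept direction and side of the threshold, 37 changed sign, 17 newly passed and 5 lost their call. The causes were not tested. Genes called in primed against naive cultures (16) numbered 0 with no filter, with no variance trend and with only those groups fitted, 1 with the macrophage covariate, 51 with the replicate block, 733 with sample weights, and 0 to 356 with a library left out. In non-primed against naive (22) they numbered 0, 5 and 7 under the first 3 of these, 13 with a robust prior, 1 with the covariate, 621 with weights, and 0 to 355 with a library left out. In injected against naive (190) they numbered 77 with no filter, 109 with no trend, 1 with the covariate, 694 with weights, and 0 to 596 with a library left out; in primed against non-primed (0) they numbered 2109 with weights. Sample weights ranged from 0.133 for naive 3 to 10.4 for non-primed 1. Sox genes called in primed against naive and in non-primed against naive (0) numbered 2 with weights, 1 with quantile normalization and 0 to 2 with a library left out in each. In injected against naive (1) they numbered 0 with a mean of at least 5, where Sox11 and Sox8 are not tested, 0 with the covariate, 2 with weights and 0 to 2 with a library left out. In primed against non-primed (0), weights gave 1, Sox5 at 0.42 (limma adjusted p = 0.0411). The replicate block, which also spans the naive libraries, changed no call of a Sox gene.

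Signs turned with the macrophage covariate in primed, non-primed and all injected against naive cultures: Sox5 to -0.0014, -0.0666 and -0.0340, Sox6 to -0.969, -0.871 and -0.920, and Sox13 to -0.217, -0.0976 and -0.157. With weights Sox13 turned to -0.321, -0.284 and -0.303. Between primed and non-primed cultures, weights turned Sox12 to -0.0074, Sox6 to 0.0362 and Sox9 to -0.0946, and quantile normalization turned Sox6 to 0.0086. With a library left out, the same 3 comparisons with naive spanned -0.53 to 0.728, -0.521 to 0.737 and -0.526 to 0.732 for Sox6, and -0.377 to 0.503, -0.285 to 0.5945 and -0.331 to 0.549 for Sox13. Sox4 spanned -0.0254 to 0.17 in primed and -1.07e-05 to 0.192 in all injected against naive. Primed against non-primed spanned -0.144 to 0.0238 for Sox4, -0.22 to 0.141 for Sox11, -0.036 to 0.143 for Sox12, -0.0902 to 0.238 for Sox5, -0.113 to 0.132 for Sox6, -0.027 to 0.28 for Sox8 and -0.0283 to 0.211 for Sox9. Sox9 passed with weights in the 3 comparisons with naive (-1.02, -0.92 and -0.97; limma adjusted p = 0.0401, 0.0473 and 0.0398).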
